A study of Mus musculus with 3 samples.

Results

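Chemokine genes were examined in sorted mouse pancreatic cells, in which Fbw7-deleted ductal cells were compared with wild-type ductal cells and with beta cells. The members were all genes whose symbol has the form Ccl, Cxcl, Cx3cl or Xcl followed by a number, among probe sets that the platform annotation assigns to a single gene. This gave 34 of 19938 measured genes, and a gene with several probe sets was represented by the one whose mean over the 3 arrays was highest. The rule itself uses no measured level, though the family was picked with earlier results of these data known.

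Chemokines are small secreted proteins that guide leukocytes by binding to G protein-coupled receptors, and they are named for the spacing of their conserved cysteines (CC, CXC, CX3C and C). Many are switched on in epithelial, mesothelial and stromal cells by inflammatory cytokines acting through NF-kB, others by interferons, and some are made constantly to position cells in healthy tissue. In the pancreas they are best known from pancreatitis and islet inflammation, where ductal cells, stromal cells and beta cells can all make them.

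Each group was 1 array of RNA from a pool of sorted cells of adult C57BL/6 mice over 6 weeks old, with 30000 cells sorted and 18 ng of RNA amplified per array. Beta cells came from 3 untreated mice, Fbw7 +/+ with MIP-GFP, a fluorescent reporter driven by the insulin promoter. Wild-type ductal cells came from 6 mice that were Fbw7 +/+; Ck19-CreERT; R26-LSL-YFP, and deleted ductal cells from 6 mice with Fbw7 F/F and the same Ck19-CreERT and R26-LSL-YFP alleles. Both kinds of ductal mice, controls included, carried the Cre and the reporter and received tamoxifen on 5 days, with collection 7 days after the last dose. The Cre is driven by the cytokeratin 19 promoter, so the sorted YFP cells are those in which this promoter was active, whatever their type. Beta cells differed from ductal cells in cell type, reporter and tamoxifen together, and these cannot be told apart.

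Values are log2 intensities, and a gene counted as above the floor where it exceeded that array's median over single-gene probe sets (log2 5.30 for beta cells, 5.23 for wild-type and 5.24 for deleted ductal cells). Because every group is a single array, the spread between replicates is unknown, and the differences below carry neither an error nor a p-value. A difference is called at 2-fold (log2 1) where the higher level was above the floor. These calls use the values as measured. Elsewhere, a fold of a single gene written with at least has the level below the floor replaced by the floor. Such a fold is a bound under the deposited scaling only. The targeted gene Fbxw7 had 2 probe sets, one at 4.95 on every array and the other at 7.00 for beta cells, 6.32 for wild-type ductal and 5.71 for deleted ductal cells. The sources used here do not say whether either lies in the floxed part. Neither ductal array held duct signal alone. Of 9 duct markers measured, 7 were above the floor on the beta array, 7 on the wild-type ductal array and 8 on the deleted ductal array. Those below it were Cftr (all arrays) and Prom1 (beta and wild-type arrays). All 10 mesothelial markers were also above the floor on both ductal arrays, and 11 of 12 mesenchymal markers on each. Rgs5 was below it on the wild-type array and Pdgfrb on the deleted array. In a pool, fewer cells of a type and less RNA per cell cannot be told apart.

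Of the 34 chemokine genes, 21 were above the floor on at least 1 array and 14 on all 3. The number above the floor was 20 of the 34 in beta cells and 16 of the 34 in each ductal array. Of all genes, 50% were above it on the beta array, 49.3% on the wild-type ductal array and 49.5% on the deleted ductal array. The other 13 chemokine genes were below the floor everywhere: Ccl8, Ccl12, Ccl17, Ccl20, Ccl22, Ccl26, Ccl28, Cx3cl1, Cxcl9, Cxcl11, Cxcl14, Cxcl15 and Xcl1. No fold is given for these, and a level below the floor is not evidence that a transcript was absent.

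The regulatory sequence next to 4 members is shown because these genes differed most plainly between the cell types and because the table used here holds their promoters. Cxcl1, Cxcl10 and Cxcl13 were higher on both ductal arrays, and Ccl3 on the beta cell array. Each run is the 250 bases before the RefSeq start on the gene's own strand (GRCm38.p6), at chr5:90890995-90891244 (+ strand) for Cxcl1, chr5:92348890-92349139 (- strand) for Cxcl10, chr5:95956689-95956938 (+ strand) for Cxcl13 and chr11:83649379-83649628 (- strand) for Ccl3. Capitals mark matches, on either strand, to the NF-kB consensus, to the interferon-stimulated response element (GAAA, any 2 bases, GAAA) or to the AP-1 site TGANTCA.
Cxcl1: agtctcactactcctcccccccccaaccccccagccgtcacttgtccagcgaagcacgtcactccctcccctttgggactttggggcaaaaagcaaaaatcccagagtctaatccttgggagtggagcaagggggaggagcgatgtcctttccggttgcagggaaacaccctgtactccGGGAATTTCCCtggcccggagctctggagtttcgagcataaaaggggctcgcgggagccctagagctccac
Cxcl10: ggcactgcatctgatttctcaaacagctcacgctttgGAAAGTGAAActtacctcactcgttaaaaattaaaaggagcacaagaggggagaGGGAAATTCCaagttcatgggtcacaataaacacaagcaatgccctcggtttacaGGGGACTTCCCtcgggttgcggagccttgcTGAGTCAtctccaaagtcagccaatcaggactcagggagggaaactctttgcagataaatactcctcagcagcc
Cxcl13: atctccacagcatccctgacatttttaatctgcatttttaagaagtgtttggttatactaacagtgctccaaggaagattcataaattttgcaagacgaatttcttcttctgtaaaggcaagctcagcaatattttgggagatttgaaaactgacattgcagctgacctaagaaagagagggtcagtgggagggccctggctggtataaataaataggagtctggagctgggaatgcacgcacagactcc
Ccl3: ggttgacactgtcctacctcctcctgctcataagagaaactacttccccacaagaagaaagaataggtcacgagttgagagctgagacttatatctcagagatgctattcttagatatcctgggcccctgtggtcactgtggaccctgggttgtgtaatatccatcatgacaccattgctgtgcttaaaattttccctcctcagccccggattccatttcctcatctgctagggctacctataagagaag
In Cxcl1 the capitals are 1 stretch of overlapping NF-kB consensus matches, starting 71 bases before the start. In Cxcl10 they are, in order, 1 interferon-stimulated response element (213 bases before the start), 2 NF-kB stretches (159 and 104 bases before it) and 1 AP-1 site (74 bases before it). Cxcl13 and Ccl3 hold no match in this window, which says only that these letters are not there. The promoter table held 23 of the 34 genes, without Ccl2, Ccl7, Ccl11 and Cxcl5. Of the 23, 7 (30.4%) had an NF-kB consensus match (Ccl1, Ccl9, Ccl20, Cxcl1, Cxcl2, Cxcl3 and Cxcl10) against 8.23% of 27025 genes, 3 had an interferon element (Ccl19, Cxcl10 and Cxcl14, against 3.46%) and 2 an AP-1 match (Ccl9 and Cxcl10, against 7.82%). A match is a description of the letters. The 7 genes with an NF-kB match included genes over 2-fold higher in both kinds of ductal cells than in beta cells (Cxcl1, Cxcl10), genes under 2-fold above wild-type ductal cells in beta cells (Ccl1, Ccl9 and Cxcl3), Cxcl2, which read the same on all arrays, and Ccl20, which was below the floor.

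Deleted and wild-type ductal cells were compared to see which chemokine transcripts differed between their single arrays. Among the 17 chemokine genes above the floor in this comparison, 9 read lower in deleted cells (35.4% of all genes compared did), 4 read higher (16.4%) and 4 were identical (48.2%). Only Ccl7 passed 2-fold, downward, or 1 of 17 against 1.81% of the 10035 genes compared, and 0 passed it upward against 1.43%. The median difference of the 17 was log2 -0.29, beside 0 over all genes. The latter falls on exact ties, which made up 48.2% of all genes and 23.5% of the 17. Among genes that were not tied, lower outnumbered higher in both, 9 to 4 for the members and 3551 to 1643 for all genes. The median of the 17 depended on the floor, and it describes the 17 and not the family. Without a floor the median over all 34 members was 0. It was -0.17 with levels raised to the floor, and -0.62 over 8 members with the floor at the 75th percentile.

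**Figure D1:**
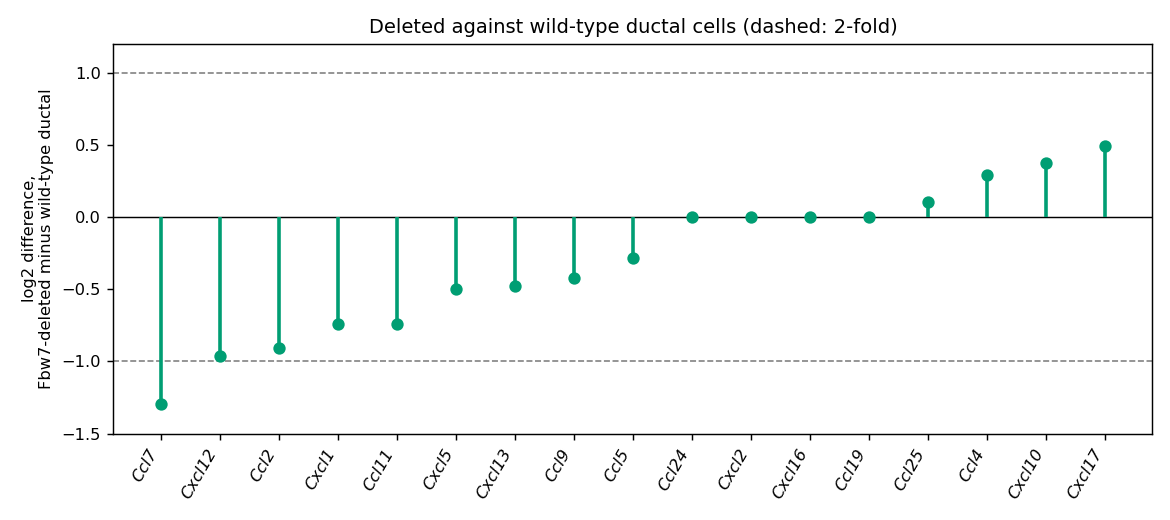
Log2 difference of Fbw7-deleted minus wild-type ductal cells for the 17 chemokine genes above the floor, 1 array per group, with dashed lines at 2-fold. Ccl7 (-1.30) is the only point beyond a dashed line, with Cxcl12 (-0.96) and Ccl2 (-0.91) next to it and Cxcl17 (0.49) the highest.

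The monocyte-attracting CC chemokines Ccl7 and Ccl2 had 2 of the 3 most negative differences. Ccl7, a ligand of Ccr2 that draws monocytes from the marrow, read 10.02 for wild-type and 8.72 for deleted ductal cells, and 5.67 in beta cells. The deleted level was 2.46-fold below the wild-type level. It was the 81st lowest difference of 10035. Ccl2, the main monocyte chemoattractant and another Ccr2 ligand, read 10.78 for wild-type and 9.87 for deleted ductal cells (-0.91, 1.88-fold), and 6.23 in beta cells. Ccl11, the eosinophil attractant eotaxin, read 6.22 in wild-type and 5.48 in deleted cells (-0.74). These 3 genes follow each other directly on chromosome 11 of the RefSeq assembly, as the first of 6 consecutive chemokine genes whose others (Ccl12, Ccl8 and Ccl1) were below the floor on both ductal arrays. In deleted cells Ccl2 and Ccl7 still read far above the floor, while Ccl11 was close to it.

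Cxcl12, the ligand of Cxcr4 that retains blood progenitors and is made largely by stromal cells, read 6.77 for wild-type and 5.81 for deleted ductal cells. Its difference of -0.96 lay just short of 2-fold. It was the closest member below the threshold, and Ccl7 at -1.30 the closest above it. Of 3 neutrophil attractants of the Cxcr2 family above the floor, 2 read lower in deleted cells, 1 was identical and 0 passed 2-fold. Cxcl1 read 10.12 against 9.38 (-0.74) and Cxcl5 8.32 against 7.82 (-0.50). Cxcl13, which attracts B cells through Cxcr5, read 9.20 in wild-type and 8.73 in deleted cells (-0.47). Cxcl2, a close relative of Cxcl1, held the same value of 6.06 on all 3 arrays, and Cxcl3 the same value of 5.00, below the floor, on both ductal arrays. Ccl5, which attracts T cells and monocytes, was at -0.29 (5.98 against 5.69). Ccl9 was at -0.42 (5.41 against 4.99) but only -0.17 when its level below the floor in deleted cells was raised to the floor.

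The members that read higher in deleted cells were fewer and the differences smaller. Cxcl17, a mucosal chemokine, read 5.68 for wild-type and 6.17 for deleted ductal cells (0.49), near its beta cell level of 6.20. Cxcl10, the interferon-induced ligand of Cxcr3 on activated T cells, read 8.70 against 9.08 (0.38), the opposite sign to Ccl2 and Cxcl1. Ccl4, a chemokine made by macrophages and T cells, was at 0.29, or 0.16 with its wild-type level raised to the floor, and Ccl25, the gut and thymus chemokine, at 0.10. Cxcl16, a chemokine that is made as a membrane protein and shed, was identical at 7.85 in both ductal arrays, and Ccl19 (6.24) and Ccl24 (6.30) were identical on all 3. In all, 14 of the 34 members (41.2%) were identical on the ductal arrays, against 59.1% of all genes. On all 3 arrays 17.6% of the members and 21.2% of all genes were identical. How such exact ties arose in the deposited values is not stated, and a tie is not evidence of equal expression.

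Markers of other cells differed between the ductal arrays as well. Of all genes compared, 35.4% were lower in deleted cells by any amount and 16.4% higher, 1.81% at least 2-fold lower and 1.43% at least 2-fold higher. After quantile normalization 0.92% were at least 2-fold lower. Mesenchymal markers were lower in deleted cells, with 11 of 12 below their wild-type level, 5 of them by at least 2-fold (2 after quantile normalization), and a mean level over the list of 8.71 in wild-type and 7.99 in deleted cells. The duct list was higher, with 8 of the 8 markers above the floor higher, 4 of them by at least 2-fold, and a mean of 7.22 against 8.37. The mesothelial list, which was chosen with earlier results known, read alike (9.50 and 9.56), with 0 of 10 at least 2-fold apart. Acinar markers were higher in deleted cells, all 7 of them and 6 by at least 2-fold, with a mean of 9.28 against 10.99. Of the alpha and delta cell markers, 4 of 4 above the floor were higher, 2 of them by at least 2-fold. The leukocyte list had 5 of 17 markers above the floor on each ductal array, with the pan-leukocyte gene Ptprc and the myeloid genes Lyz2 and Tyrobp below it on both. Other members of that list read high on the ductal arrays, such as Cd14 (9.76 in wild-type and 9.60 in deleted cells) and the class II genes Cd74 (8.53 and 7.77) and H2-Ab1 (7.67 and 6.64). Of the 5 leukocyte markers, 4 read lower in deleted cells and 1, H2-Ab1 at -1.03, passed 2-fold (0 passed after quantile normalization). The part of any of these markers in the chemokine differences was not tested.

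**Figure D2:**
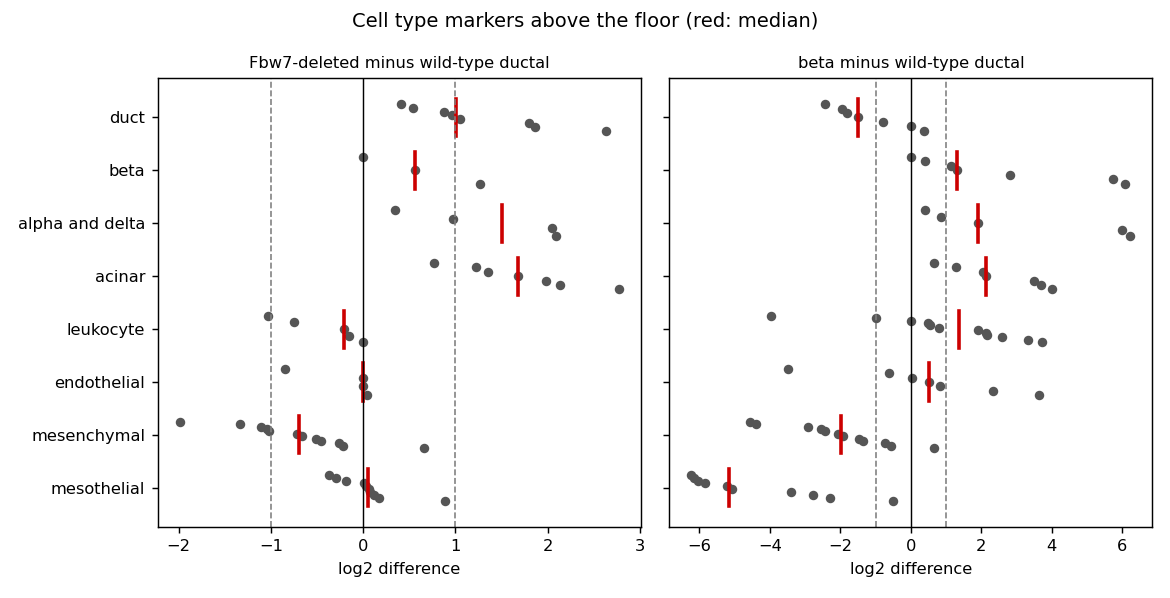
Log2 differences of cell type markers above the floor for deleted minus wild-type ductal cells (left) and beta minus wild-type ductal cells (right). Each point is a gene, the red line is the list median, and dashed lines mark 2-fold. Mesenchymal markers lie mostly below 0 in both panels, and mesothelial markers have a median of 0.05 on the left and a median of -5.15 on the right.

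Beta cells and wild-type ductal cells were compared to set the cell types side by side, and members differed more widely here than between the ductal arrays. A set of Ccl and Cxcl genes read at least 2-fold higher in ductal cells, led by Ccl2, Ccl7, Cxcl1 and Cxcl5, while the CC chemokines Ccl3, Ccl11, Ccl4 and Ccl6 read at least 2-fold higher in beta cells. Of 21 members compared, 8 (38.1%) were at least 2-fold lower in beta cells against 25.8% of 11139 genes, and 4 (19.0%) at least 2-fold higher against 6.37%. The median of the 21 was 0, beside -0.11 over all genes. A gene that is high on either array passes the floor and a gene that is low on both does not, so these shares describe the 21 and not the family.

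**Figure D3:**
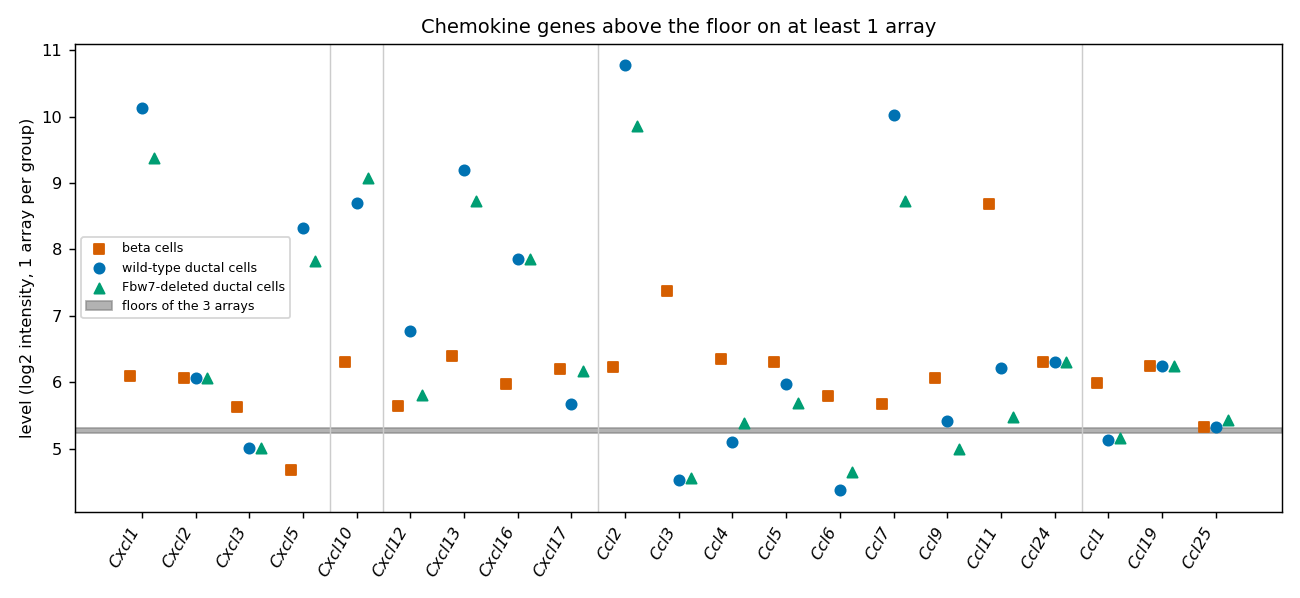
Level (log2 intensity) of the 21 chemokine genes above the floor on at least 1 array, with squares for beta cells, circles for wild-type and triangles for deleted ductal cells, 1 array each. Vertical lines part the groups by role and the grey band spans the floors of the arrays. Ccl2, Ccl7, Cxcl1, Cxcl5 and Cxcl13 are far above the band in both ductal arrays, and Ccl11 and Ccl3 are highest in beta cells.

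Ccl2 was 23.3-fold and Ccl7 20.4-fold lower in beta cells than in wild-type ductal cells, the 40th and 55th lowest of 11139 differences. Cxcl1 was 16.4-fold lower, with 6.09 in beta cells against 10.12. Cxcl5, which airway and gut epithelium makes to recruit neutrophils, read 4.68 in beta cells, below the floor, against 8.32, and was at least 8.11-fold lower. For each of these genes both ductal levels lay above the beta cell level. Cxcl13 was 7.00-fold lower (6.39 against 9.20), Cxcl10 5.25-fold (6.31 against 8.70), Cxcl16 3.68-fold (5.97 against 7.85) and Cxcl12 2.19-fold (5.65 against 6.77). For Cxcl12 the difference was -1.13 as deposited and -0.86 after quantile normalization, which takes it below 2-fold.

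Ccl3, a macrophage inflammatory protein that binds Ccr1, read 7.37 in beta cells and 4.53 and 4.55 in wild-type and deleted ductal cells. Against wild-type ductal cells it was at least 4.39-fold higher, since both ductal levels were below the floor, and 34th highest as measured. Ccl11 read 8.68 in beta cells against 6.22, 5.51-fold higher. Ccl11 thus went the opposite way to Ccl2 and Ccl7, which lie beside it on chromosome 11. Ccl4 read 6.35 against 5.10 and was at least 2.17-fold higher. Ccl6, a CC chemokine of myeloid cells, read 5.80 against 4.37, a measured difference of 1.43 but at least only 1.48-fold against the floor. Ccl3, Ccl4, Ccl6, Ccl9 and Ccl5 form the other run of consecutive chemokine genes on chromosome 11, and all 5 read higher in beta cells, Ccl9 by 0.64 and Ccl5 by 0.32. Differences short of 2-fold were those of Cxcl17 (0.52), of Ccl1, a Ccr8 ligand (0.86, or 0.76 against the floor), and of Cxcl3 (0.62, or 0.39 against the floor), the wild-type levels of the last pair being below it. Ccl19, Ccl24, Ccl25 and Cxcl2 were identical on both arrays.

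Among the CXC chemokines on chromosome 5, Cxcl1 and Cxcl5 were lower in beta cells, Cxcl3 read higher and Cxcl2 was exactly tied. Cxcl5, Cxcl3, Cxcl15, Cxcl1 and Cxcl2 lie within a span of 7 protein-coding genes. Close relatives such as Cxcl1, Cxcl2 and Cxcl3, or Ccl3 and Ccl4, are similar in sequence, and how far their probes share signal was not tested.

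Markers of several other cell types differed between these arrays too. Of all genes compared, 6.37% were at least 2-fold higher in beta cells and 25.8% at least 2-fold lower. Leukocyte markers above the floor numbered 12 of 17 in beta cells and 5 of 17 in wild-type ductal cells, with a mean level of 5.88 against 4.90. Of the 12 compared, 6 were at least 2-fold higher in beta cells, against 6.37% of all genes. All 6 were below the floor in wild-type ductal cells. With levels raised to the floor, Ptprc (0.64) and Fcer1g (0.78) fell short of 2-fold, and the list median went from 1.36 to 0.59. Tyrobp, a signalling adaptor of myeloid cells, read 7.36 against 4.77, while the myeloid gene Cd14 went the other way at 5.79 against 9.76 and was the 1 member at least 2-fold lower. The macrophage and neutrophil genes Adgre1, Itgam and Ly6g were below the floor on all 3 arrays. Mesothelial markers went the other way, with a mean of 5.15 in beta cells against 9.50, and mesenchymal markers with 6.68 against 8.71. Of 7 duct markers compared, 5 were lower in beta cells, 4 of them by at least 2-fold. Cdh1 read higher in beta cells (6.92 against 6.54) and Epcam was tied at 5.42. After quantile normalization 2 were at least 2-fold lower and 1 higher, against 17.9% and 10.6% of all genes. Markers of other pancreatic cells also read high on the beta cell array. Acinar markers had a mean of 11.75 against 9.28, with 6 of 7 at least 2-fold higher in beta cells. The glucagon gene Gcg read 11.00 and the somatostatin gene Sst 11.04, against 4.77 and 5.06 in wild-type ductal cells, beside 11.04 for the insulin gene Ins2. Of 9 beta cell markers, 7 were above the floor on the beta cell array, and 5 of the 7 compared were at least 2-fold higher there. Pdx1 (5.14) and G6pc2 (4.83) were below the floor on it, and Mafa was tied at 5.49 on all 3 arrays. Of 7 endothelial markers compared, Pecam1 (6.73 against 4.40) and Emcn (7.02 against 3.37) were at least 2-fold higher and Cd34 (6.90 against 10.39) lower. The wild-type ductal levels of Gcg, Sst, Pecam1, Emcn and Tyrobp were below the floor. The part of these cells in the chemokine differences was not tested.

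Against deleted ductal cells, beta cells showed much the same order of members. The comparison shares the beta cell array with the previous one, so its values are given side by side and not as a repeat. Of 21 members compared, 7 were at least 2-fold lower in beta cells (33.3%, against 23% of 11095 genes) and 4 at least 2-fold higher (19.0%, against 5.13%). Ccl2 was 12.4-fold, Cxcl1 9.81-fold, Ccl7 8.29-fold, Cxcl10 6.81-fold, Cxcl13 5.04-fold and Cxcl16 3.68-fold lower, and Cxcl5 at least 5.73-fold lower. Cxcl12, at -0.17, differed little from deleted cells. Ccl11 was 9.19-fold higher in beta cells, the 12th highest of 11095 differences, and Ccl3 at least 4.37-fold higher. Ccl9 (1.07) and Ccl6 (1.15) passed 2-fold as measured, and against the floor they were at least 1.76-fold and at least 1.47-fold higher. Ccl4, at 0.96, was the closest member below the threshold and Ccl9 the closest above it. Cxcl17 was at 0.03, and its sign turned to -0.15 with each array centred.

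**Figure D4:**
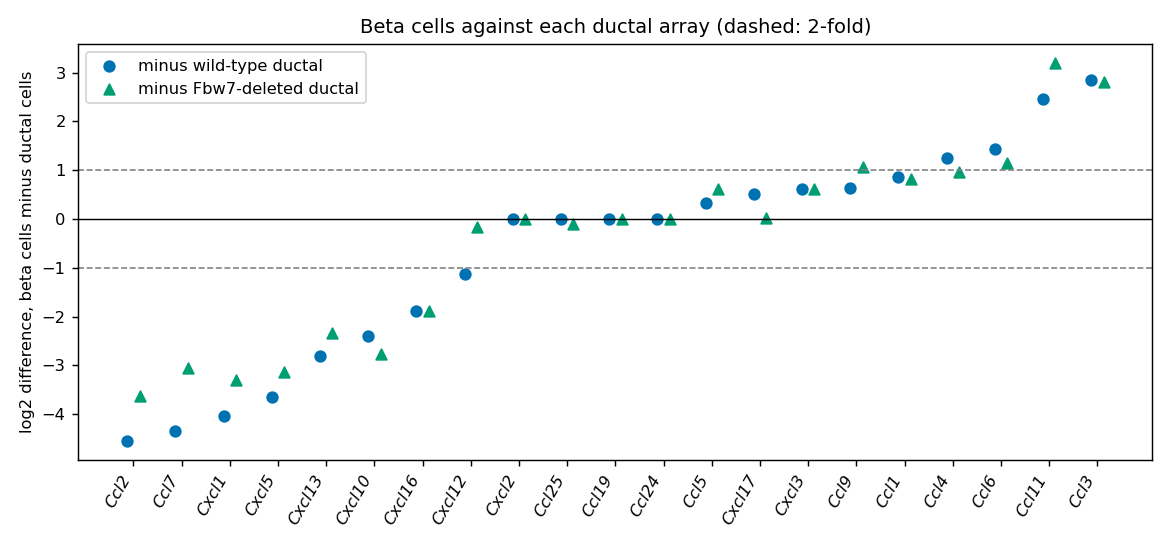
Log2 difference of beta cells minus wild-type ductal cells (circles) and minus deleted ductal cells (triangles) for 21 chemokine genes, ordered by the first, with dashed lines at 2-fold. Both differences use the same beta cell array. Ccl2 is lowest (-4.54 and -3.64), and Ccl3 (2.84 and 2.82) and Ccl11 (2.46 and 3.20) are highest.

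Receptors for these ligands were mostly below the floor. Of 17 measured signalling receptors, 4 were above it in beta cells and 3 in each ductal array, and Ccr1, Ccr2, Cxcr2 and Cxcr3, which bind several of the ligands above, were below it on every array. Between the ductal arrays 0 of 3 compared differed by 2-fold: Ccr10 (5.71) and Cx3cr1 (5.54) were identical and Ccr7, a homing receptor of T cells and dendritic cells, was at 0.11. Cxcr4, the receptor of Cxcl12, was below the floor on both ductal arrays. In beta cells it read 6.54 against 4.67 in wild-type ductal cells (1.87, or 1.31 with that level raised to the floor). In beta cells Cx3cr1, the fractalkine receptor, read 6.57 (1.03 above wild-type ductal cells), Ccr10 6.36 (0.65) and Ccr7 6.23 (0.64). Among 5 atypical receptors, which bind chemokines without signalling through G proteins, Ackr3, a scavenger of Cxcl12, read 7.43 for wild-type and 7.39 for deleted ductal cells against 6.01 in beta cells, and Ccrl2 was identical at 5.66. The platelet chemokines Pf4 and Ppbp, whose symbols lie outside the family pattern, were below the floor on both ductal arrays, and Pf4 read 6.14 in beta cells.

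Genes of the NF-kB pathway, which induces Ccl2, Cxcl1 and others, were lower in deleted ductal cells in 10 of the 15 above the floor, with 4 identical and a median of -0.19, and 1 of 15 passed 2-fold. Over all genes compared, 35.4% were lower, 48.2% identical and 1.81% at least 2-fold lower. The gene past 2-fold was Nfkbie, an inhibitor of NF-kB, at 7.12 in wild-type and 5.81 in deleted cells (-1.31). Birc3, an inhibitor of apoptosis, was at -0.70, and at the other end Tnip1 was identical and Bcl3, a nuclear NF-kB partner, at 0.01, which turned to -0.02 with each array centred. After quantile normalization the median was -0.02 and the adhesion gene Icam1 moved from -0.17 to 0.01. In beta cells 6 of 15 were at least 2-fold lower than in wild-type ductal cells and 0 higher, with a median of -0.87, beside 25.8% and 6.37% of all genes. The lower count was 3 of 15 after quantile normalization, where 17.9% of all genes were lower, and 9 of 15 with each array centred, where 30.7% were, so after quantile normalization it was near the share over all genes.

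Of the cytokines that induce chemokines and their receptors, 12 were above the floor in the ductal comparison. In deleted cells 7 were lower, 4 identical and 1 higher, beside 35.4%, 48.2% and 16.4% of all genes. Ifngr1, 1 of the 7, turned from -0.04 to 0.10 after quantile normalization. Il33, an alarmin cytokine, was the gene past 2-fold (7.93 against 6.88), where 1.81% of all genes were at least 2-fold lower. After quantile normalization 0 passed. Tnfrsf1b, a receptor of tumour necrosis factor, was at -0.79. Tnf itself was the member that was higher (0.39), from a wild-type level of 4.99 below the floor, and the interleukin 6 receptor Il6ra was identical at 5.98. Against wild-type ductal cells, beta cells had 7 of 13 at least 2-fold lower (25.8% of all genes) and 2 higher (6.37%). These 2 were Tnf (6.82 against 4.99) and Il1b (7.59 against 4.66), both below the floor in wild-type ductal cells. Of 7 interferon-response genes, Ifnar2, an interferon receptor chain, was lower in deleted cells (9.54 against 8.50, -1.04, and under 2-fold after quantile normalization), Irf1 and Irf7 were identical, and Stat2 was at 0.01, turning to -0.03 with each array centred.

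Enzymes and carriers that act on chemokines at the cell surface had a median of -0.66 over 7 genes in deleted against wild-type ductal cells. It was -0.46 after quantile normalization. Of the 7, 5 were lower, 1 identical and 1 higher, beside 35.4%, 48.2% and 16.4% of all genes. The 1 gene past 2-fold was lower, beside 1.81% of all genes. Mmp2, a gelatinase that trims Ccl7 and Cxcl12, read 8.06 in wild-type and 5.89 in deleted cells, 4.51-fold lower. Ext1, which polymerises the heparan sulfate that holds chemokines on cells, was at -0.79, the heparan sulfate carrier Sdc1 was identical at 6.23, and Dpp4, a peptidase that inactivates Cxcl10 and Cxcl12, was at 0.54. In beta cells 6 of 7 were at least 2-fold lower than in wild-type ductal cells, beside 25.8% of all genes.

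**Figure D5:**
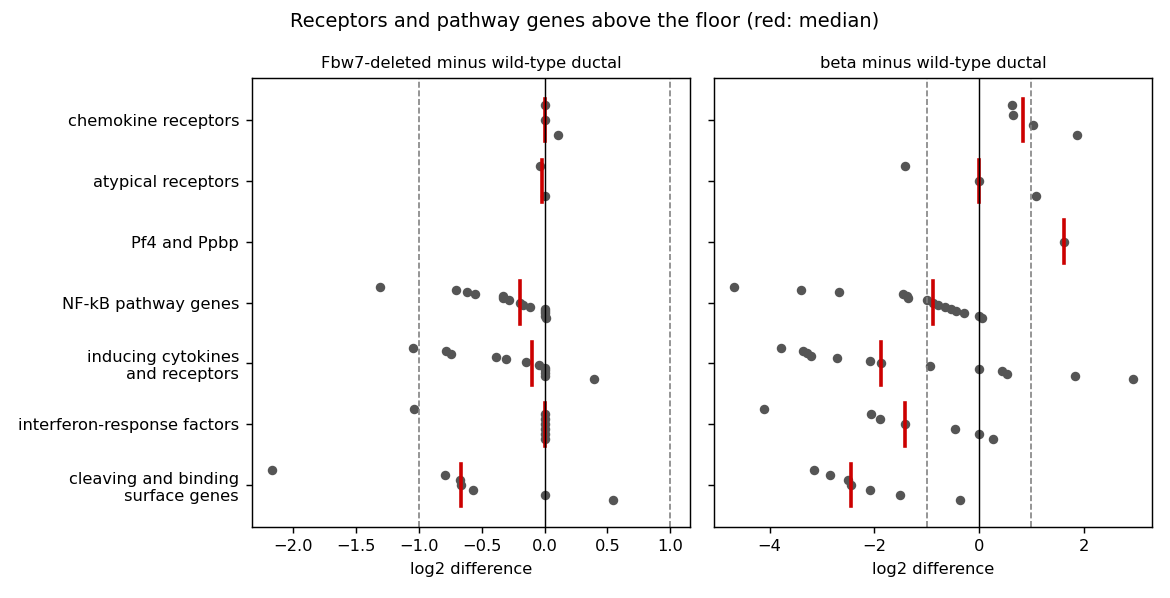
Log2 differences of chemokine receptors and pathway genes above the floor for deleted minus wild-type ductal cells (left) and beta minus wild-type ductal cells (right). Each point is a gene, the red line is the list median, and dashed lines mark 2-fold. On the left 4 points, Nfkbie, Il33, Ifnar2 and Mmp2, lie beyond 2-fold, all to the negative side.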

How the data were processed

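RNA of 3 pools of sorted cells was measured on 1 array per group. The deposited values are log2 intensities per probe set, made by the authors with RMA per the submitters' processing notes, while the version and the set of arrays processed jointly are not stated there. The SD over all 35556 probe sets was 1.57, 2.02 and 1.97 for beta, wild-type and deleted ductal cells, so the arrays do not share 1 distribution. Of all genes, 59.1% held exactly the same value on both ductal arrays and 21.2% on all 3, and the reason is not stated.

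The platform annotation names 1 gene for 21789 probe sets (21698 of them matched RefSeq GRCm38.p6 by gene ID), several for 1621 and none for 12146. The Ccl21 and Ccl27 genes occur only on probe sets of several genes and are not members. Named genes are all members above the floor on at least 1 array, and up to 4 per pathway list (the 2 highest and the 2 lowest in deleted minus wild-type ductal cells). Tnf, Il1b, Irf1, Irf7, Cxcr4, Icam1, Ifngr1 and the receptors below the floor were named in addition, after their values were seen. Ties among identical genes, single marker genes, the cell type of which is given beside them, and the 4 promoters shown were also chosen after their values were seen. The members and lists were chosen with earlier results of these data known. Differences were taken between arrays for 3 comparisons, and the number of arrays limits the precision. Alternatives were another floor, fold, scaling or probe set rule. The scripts were tested on simulated data. Python 3.11.15, numpy 2.4.6, pandas 2.3.3 and matplotlib 3.10.9 were used, with promoters from RefSeq.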

Additional observations from a re-analysis of the deposited data

Results flagged for a closer look

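Chemokine signal also appeared on probe sets that list several genes and were therefore left out above. The Ccl21 genes, ligands of Ccr7, share 4 such probe sets with identical values on each array, 7.26 for beta cells, 6.32 for wild-type ductal and 6.18 for deleted ductal cells, so beta cells were 0.94 above wild-type ductal cells. The Ccl27 genes, ligands of Ccr10, share 3, of which 2 read 6.06, 6.81 and 7.42 in the same order and the third 6.17, 7.21 and 7.77. Deleted ductal cells were thus 0.61 above wild-type ductal cells on the former and 0.57 on the latter. Which of the listed genes gave the signal was not tested.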

How the results depend on the processing

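No called difference of a chemokine gene changed sign under another floor, scaling, probe set rule or with levels raised to the floor. Ccl7 stayed the 1 member at least 2-fold lower in deleted ductal cells under these. At 1.5-fold 5 of the 17 members were apart, all lower in deleted cells (Ccl2, Ccl7, Ccl11, Cxcl1 and Cxcl12). Of all genes, 7.25% were lower and 2.81% higher at that threshold. At 4-fold 0 members were apart, beside 0.15% of all genes lower and 0.41% higher. For beta against wild-type ductal cells the 4 of 21 members at least 2-fold higher became 7 at 1.5-fold (14.0% of all genes) and 2 at 4-fold (0.92%). For beta against deleted ductal cells the 4 became 8 at 1.5-fold (12.97% of all genes). The 4 became 2 (Ccl3 and Ccl11) at 4-fold (0.57%), with each array centred (3.01%) or with levels raised to the floor (2.33%). Over all genes, the share of 2-fold calls of beta against wild-type ductal cells that were higher was 19.8% as deposited, 37.3% after quantile normalization and 11.5% with centring, which moved the median of all genes by 0.20 and -0.20. For beta against deleted ductal cells the shares were 18.2%, 35.8% and 9.97%, and for deleted against wild-type ductal cells 44.2%, 60.3% and 40.1%. No paired analysis was possible because each group is 1 array and no result comes from a test.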
